A study of Homo sapiens and Mus musculus with 12 samples.

Results

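The loci of 10 neutrophil granule proteins, PRTN3, ELANE, AZU1, CFD, PRSS57, MPO, CTSG, LYZ, BPI and LTF, were examined for peaks of SPI1, GFI1 and LSD1. They were chosen by name and make up 10 of the 20033 protein-coding genes of GENCODE release 44 on the GRCh38 build. A peak belonged to a locus when at least 1 bp of it lay within the gene body or 10 kb to either side. The data are chromatin immunoprecipitation sequencing (ChIP-seq) peak lists from 5 libraries. THP1, a human monocytic leukemia cell line, gave a SPI1 list and a GFI1 list and carried no treatment label. K562, a human leukemia cell line with erythroid features, stably expressed Cas9 and gave the other 3 lists. Control K562 cells (sg-NT) carried a non-targeting guide RNA and gave an LSD1 list and a GFI1 list. LSD1-depleted K562 cells (sg-LSD1) were a single line made with 1 guide RNA against LSD1, in which some LSD1 protein remained as the study describes it, and gave a GFI1 list. Each condition had 1 library, so no replicate error is known and no test between libraries was made. The input libraries and the murine H3K4me1 libraries were not used here.

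Neutrophil granule proteins are made while myeloid precursors mature and are stored until the cell meets a microbe. Serine proteases, myeloperoxidase and bactericidal proteins fill the early primary granules, whereas lactoferrin is a product of the later secondary granules. SPI1 (PU.1) is the ETS-family activator of myeloid genes, GFI1 is a zinc finger repressor of the same lineage, and LSD1 is a histone demethylase that GFI1 recruits through its SNAG domain. AZU1, PRTN3, ELANE and CFD lie next to each other on chromosome 19 in this order and on the same strand, and PRSS57 lies on the same chromosome, further toward its start. The windows of the 4 neighbors overlap, so 1 peak can belong to as many as 3 of these loci and the loci are not independent counts.

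A few sites carry the comparison of the loci, and their reference sequence is given. The sequences are from GRCh38, plus strand unless stated, and capitals mark AATC, the short GFI1 core (AATCAC when complete), and GAGGAA, the SPI1 core, on either strand. The first holds the SPI1 summit at base 26 and the GFI1 summit at base 77 of the only locus with both peaks, and the next 3 are GFI1 sites of THP1 cells near MPO, BPI and CFD. The ELANE and PRSS57 sequences are LSD1 sites of sg-NT cells, and the CTSG sequence is the 100 bases before its RefSeq start, at a locus with no peak.
LYZ, chr12:69338173-69338298: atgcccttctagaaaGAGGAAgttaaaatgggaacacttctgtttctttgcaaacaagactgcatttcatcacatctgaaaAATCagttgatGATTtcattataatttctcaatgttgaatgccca
MPO, chr17:58281908-58282007: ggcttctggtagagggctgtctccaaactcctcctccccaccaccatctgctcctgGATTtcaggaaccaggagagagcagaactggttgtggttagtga
BPI, chr20:38304035-38304134: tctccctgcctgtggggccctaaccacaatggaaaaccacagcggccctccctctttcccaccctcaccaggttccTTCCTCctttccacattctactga
CFD (in MED16), chr19:872573-872672: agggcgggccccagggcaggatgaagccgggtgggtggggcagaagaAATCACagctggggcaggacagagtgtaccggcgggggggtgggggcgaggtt
ELANE, chr19:853703-853802: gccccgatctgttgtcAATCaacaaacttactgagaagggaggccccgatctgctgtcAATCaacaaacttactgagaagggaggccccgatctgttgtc
PRSS57, chr19:703453-703552: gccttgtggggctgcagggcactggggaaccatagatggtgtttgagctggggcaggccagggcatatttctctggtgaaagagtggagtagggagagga
CTSG, chr14:24576251-24576350, minus strand: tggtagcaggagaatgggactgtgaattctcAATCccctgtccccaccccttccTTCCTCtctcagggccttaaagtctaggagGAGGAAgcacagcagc

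GFI1 in THP1 cells had a peak at 8 of the 10 loci, against 13.9% of all protein-coding genes, and CTSG and PRSS57 were the loci without one. These 8 loci held 7 distinct peaks, because PRTN3, ELANE and AZU1 shared 1 and MPO had 2. LSD1 in sg-NT cells had a peak at 5 of the 10 loci, against 24.3% of all genes. The 5 were PRTN3, ELANE, AZU1, CFD and PRSS57, the loci on chromosome 19. That chromosome held 749 of the 6548 LSD1 peaks, and the share over its genes alone was not computed. SPI1 in THP1 cells had a peak at 1 of the 10 loci, LYZ, against 7.48% of all genes, a share close to this background. GFI1 had a peak at 0 of the 10 loci in sg-NT cells, against 2.14% of all genes, and at 0 of 10 in sg-LSD1 cells, against 0.704%. Both counts were also close to their backgrounds. No test was made of these shares, since there was 1 library a condition and the loci overlap. Counted within 10 kb of the gene start alone, THP1 GFI1 had a peak at 5 of the 10 loci against 8.02% of all genes, and LSD1 at 5 of 10 against 15.2%. With a −log10 p of at least 8, THP1 GFI1 had a peak at 7 of the 10 loci, all of the 8 but LTF, against 11.6%.

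**Figure D1:**
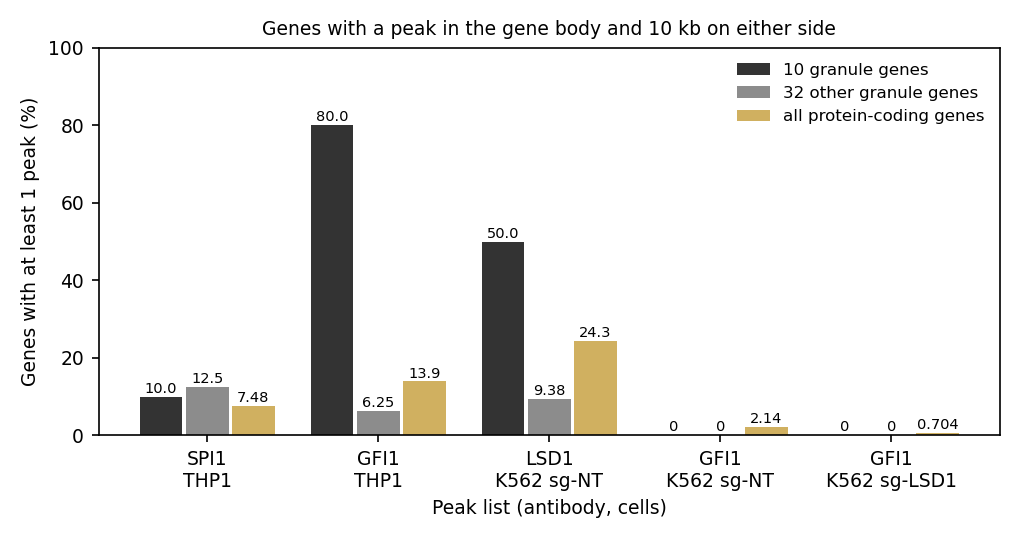
Share of genes with a peak within the gene body and 10 kb (percent, vertical axis from 0 to 100) in each of the 5 lists, for the 10 granule loci, the 32 other granule genes and all 20033 protein-coding genes. The granule loci stand above all genes for GFI1 in THP1 cells (8 of 10 against 13.9%) and LSD1 in sg-NT cells (5 of 10 against 24.3%). The 5 loci with LSD1 all lie on chromosome 19. In both K562 GFI1 lists the granule loci stand at 0, against 2.14% (sg-NT) and 0.704% (sg-LSD1) of all genes.

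The lists differed in length and all were shallow. They held 1846 SPI1 and 3461 GFI1 peaks in THP1 cells, and 6548 LSD1, 498 GFI1 (sg-NT) and 160 GFI1 (sg-LSD1) peaks in K562 cells. Strength is given as the deposited fold, the enrichment over the local background at the summit, and as −log10 p, for which the calling threshold was a p of 1e-05. The number of DNA fragments over a summit was solved from these 2 values, and its median was 11 to 13 in the 5 lists. Intervals on fragment numbers are 95% exact Poisson intervals and cover counting error only. At the genome-wide background, a place needed 5 or 6 fragments to be listed, so weaker binding at a locus without a peak would be missing from these lists.

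**Figure D2:**
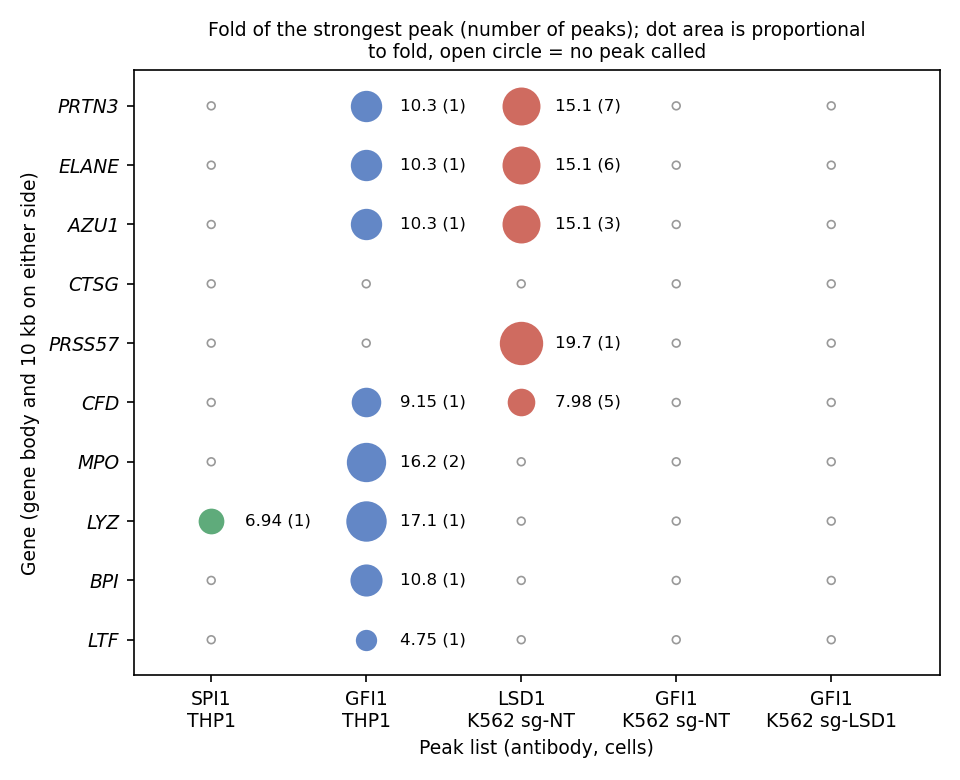
Fold of the strongest peak of each of the 10 loci (rows) in each of the 5 lists (columns), with dot area proportional to fold, the number of peaks in parentheses and open circles where no peak was listed. PRTN3, ELANE and AZU1 share the same GFI1 peak (10.3) and the same strongest LSD1 peak (15.1), CTSG has only open circles, and both K562 GFI1 columns are empty.

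Among the serine proteases, PRTN3 (proteinase 3) had a GFI1 peak inside the gene in THP1 cells. The peak, chr19:841845-842382, had its summit in intron 1, 1067 bp downstream of the canonical transcript start. Its fold was 10.3 and its −log10 p 17.7, from 15 fragments (8.40 to 24.7), and it ranked 803rd of 3461. ELANE (neutrophil elastase) and AZU1 (azurocidin, a protease homolog without enzyme activity) had no other GFI1 peak, and the PRTN3 summit lay 8948 bp from the ELANE gene body and 10048 bp from that of AZU1. CFD (complement factor D, the protease that activates factor B) had a GFI1 peak at chr19:872482-872786, in intron 11 of the neighboring gene MED16 and 4739 bp past the end of CFD. Its fold was 9.15 with 13 fragments (6.92 to 22.2), within the counting interval of the PRTN3 peak. CTSG (cathepsin G) on chromosome 14 and PRSS57 (a serine protease of primary granules) on chromosome 19 had no GFI1 peak within 546 kb and 113 kb.

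MPO (myeloperoxidase), which makes hypochlorous acid, had 2 GFI1 peaks in THP1 cells, both upstream of the gene on chromosome 17. The nearer, chr17:58281682-58282457, had its summit 1023 bp upstream of the canonical start, with 23 fragments (14.6 to 34.5). Its fold was 16.2 and its −log10 p 31.5. The farther, chr17:58284774-58285484, lay 4032 bp upstream with a fold of 7.90 and 15 fragments (8.40 to 24.7). The local background was 1.03 fragments at the farther peak and 0.484 at the nearer, and the intervals of their fragment numbers overlapped.

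The bactericidal proteins and lactoferrin gave the strongest and the weakest GFI1 peaks. LYZ (lysozyme, which cuts bacterial cell walls) had the strongest, chr12:69337936-69338851, with 28 fragments (18.6 to 40.5). Its fold was 17.1 and its −log10 p 35.7. It ranked 177th of 3461 and its summit lay 10132 bp upstream of the canonical start, outside any protein-coding gene. BPI, which binds lipopolysaccharide of Gram-negative bacteria, had a peak at its start, chr20:38303803-38304281, with the summit 71 bp upstream. The BPI peak had a fold of 10.8 and 15 fragments (8.40 to 24.7). LTF (lactoferrin, an iron-binding protein) had the weakest, chr3:46431678-46432080, with 7 fragments (2.81 to 14.4). Its fold was 4.75 and its −log10 p 6.19. The LTF peak ranked 3286th of 3461 and lay 3658 bp past the end of the gene, and the nearest canonical start was that of CCRL2. The intervals of LYZ and LTF did not overlap, whereas those of LYZ, MPO (near), BPI and PRTN3 did.

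SPI1 had 1 peak near these genes, chr12:69338079-69338392, upstream of LYZ. Its fold was 6.94 and its −log10 p 10.4, from 10 fragments (4.80 to 18.4), and it ranked 1441st of 1846, below the list's median fold of 8.62. The whole of its 314 bp lay within the LYZ GFI1 peak, and the summits were 51 bp apart. Of all 1846 SPI1 peaks, 10.5% overlapped a THP1 GFI1 peak, and of all THP1 GFI1 peaks 5.58% overlapped a SPI1 peak, against 1 of the 7 at these loci. This peak entered the LYZ locus by its edge, 9989 bp from the gene body, with the summit at 10183 bp. PRTN3 had no SPI1 peak within 190 kb, and over the 9 loci without one the nearest SPI1 peak was 58.3 kb (MPO) to 343 kb (PRSS57) away.

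LSD1 in sg-NT cells had 10 distinct peaks at these loci, 9 of them in the stretch from AZU1 to MED16, the gene after CFD. The window of PRTN3 held 7, that of ELANE 6, that of CFD 5, that of AZU1 3 and that of PRSS57 1. Of all protein-coding genes, 0.0899% (18 genes) had 7 or more LSD1 peaks in their window while 0.200% had 6 or more, 0.374% had 5 or more and 2.57% had 3 or more. These shares are over all chromosomes and were not computed for chromosome 19 alone. The 9 summits covered 40.8 kb with gaps of 627 to 13400 bp and a median gap of 1841 bp. Of the 6548 LSD1 summits, 3 began a span of this length with 9 summits, and no span held more. The length of the span was taken from these same peaks, so this count is a description and not a test.

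PRTN3 had the strongest LSD1 peak of the stretch, chr19:841342-842568, 1227 bp wide with its summit in intron 1, 1278 bp downstream of the canonical start. Its fold was 15.1 and its −log10 p 39.2, from 38 fragments (26.9 to 52.2), and it ranked 215th of 6548. A second LSD1 peak in the same intron, at 2374 bp, had 7 fragments (2.81 to 14.4) and a fold of 4.91. The intervals of these neighbors did not overlap.

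AZU1 had a pair of LSD1 peaks at its end. One, chr19:831519-831806, had its summit in intron 4, with a fold of 9.34 and 15 fragments (8.40 to 24.7). The other, chr19:832053-832360, lay 202 bp past the gene, with a fold of 8.77 and 17 fragments (9.90 to 27.2). The strengths of the pair did not differ beyond their intervals.

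ELANE had 2 LSD1 peaks in its intron 3. The first, chr19:853600-854015, had its summit 1450 bp downstream of the canonical start, with a fold of 7.98 and 12 fragments (6.20 to 21.0). The second, chr19:855302-855851, had 7 fragments (2.81 to 14.4). The first lay in a tandem repeat: over 300 bp at its summit, 95.4% of the bases equalled the base 84 bp further on. This was its best distance between 10 and 100 bp but not the shortest repeat unit. In the printed sequence, AATC began at base 853719 and again at base 853761, less than 84 bp apart. The other 17 peaks of these loci gave 31.3 to 39.0%, each at its own best distance. Of all LSD1 summits, 0.489% reached 80% or more at their own best distance. Whether the repeat affected the number of mapped fragments was not tested.

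CFD had an LSD1 peak just upstream of its canonical start, chr19:858947-859470, with the summit 631 bp upstream of that start, a fold of 7.36 and 11 fragments (5.49 to 19.7). The peak at chr19:857127-857396, between ELANE and CFD, and the peak at chr19:872386-872636, in MED16, had 7 fragments each. In all, 4 of the 9 peaks of the stretch had 7 fragments and a −log10 p of 6.45, close to the calling threshold. With a −log10 p of at least 8, PRTN3 kept 4 LSD1 peaks, ELANE 3, AZU1 3, CFD 2 and PRSS57 1. Of all genes, 19.7% had at least 1 such peak, and shares of genes with several were not computed at this cut.

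**Figure D3:**
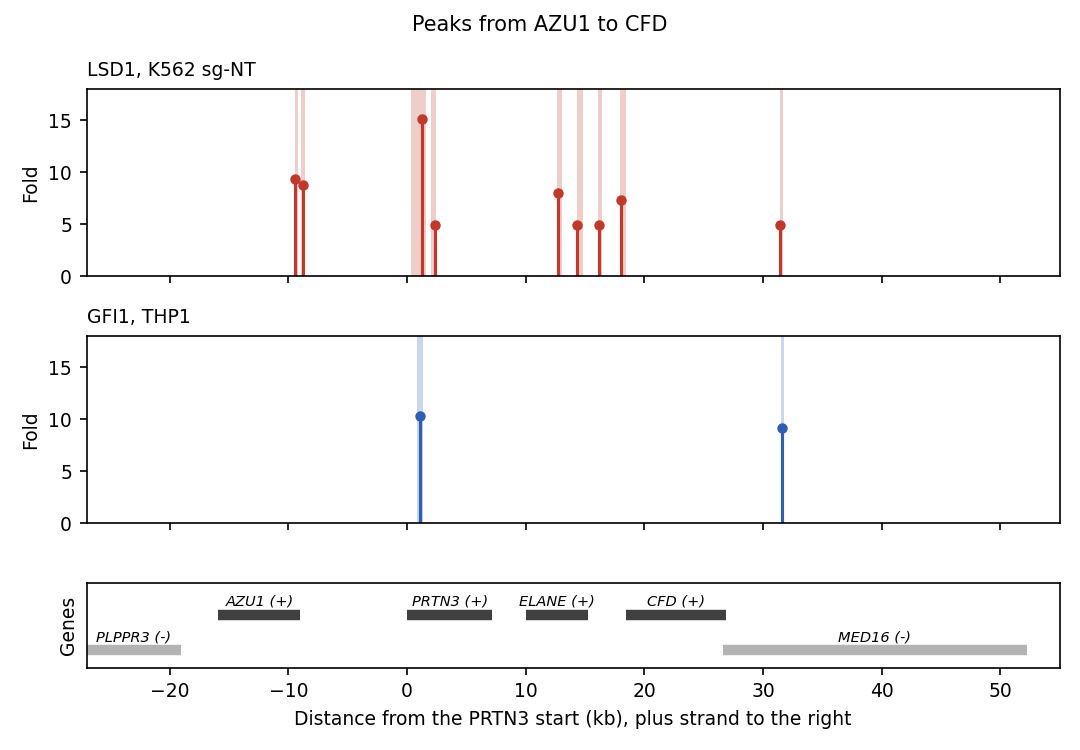
Fold at the summit (vertical axes from 0) of the LSD1 peaks of sg-NT K562 cells and the GFI1 peaks of THP1 cells against distance from the PRTN3 start (kb), with shading for peak width and genes with their strands underneath. LSD1 had 9 peaks from AZU1 to MED16, the highest in PRTN3 (15.1), and GFI1 had 2, in PRTN3 (10.3) and in MED16 (9.15).

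By fold and −log10 p, PRSS57 had the strongest LSD1 peak of all these loci, chr19:703255-703692, with 34 fragments (23.5 to 47.5). Its fold was 19.7 and its −log10 p 44.2. It ranked 143rd of 6548. Its summit lay 8051 bp upstream of the PRSS57 start, and the start of PALM was nearer, at 5432 bp. The PRTN3 peak had more fragments, 38, and the intervals overlapped. The local background was 0.778 fragments at the PRSS57 peak and 1.58 at the PRTN3 peak. No LSD1 peak lay at CTSG, MPO, LYZ, BPI or LTF, for which the nearest was 24.2 kb (LTF) to 270 kb (LYZ) away.

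GFI1 in K562 cells had no peak at any of these loci with or without LSD1 depletion. The shares of all genes were also low, 2.14% in sg-NT and 0.704% in sg-LSD1 cells, so this absence was close to background. In sg-NT cells, the nearest GFI1 peak lay 86.9 kb (CFD) to 4614 kb (BPI) away, with a median over the loci of 251 kb. In sg-LSD1 cells, the distance was 989 to 2447 kb for 9 loci, and chromosome 20, which holds BPI, had no peak in that list. Because both lists were at 0, called peaks gave no comparison of GFI1 at these genes between sg-NT and sg-LSD1 cells. Read coverage at these genes was not examined here. The lists of 498 and 160 peaks were also the shortest of the 5.

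LSD1 peaks at these loci were set beside the GFI1 peaks of the other cell line. Of the 10 LSD1 peaks, 2 overlapped a THP1 GFI1 peak, against 4.60% of all LSD1 peaks. Of the 7 THP1 GFI1 peaks, 2 overlapped an LSD1 peak, against 8.70% of all THP1 GFI1 peaks. One was the PRTN3 intron, where 538 bp were shared and the summits lay 211 bp apart, and the other was the site in MED16, with 155 bp shared and summits 190 bp apart. Cell line and protein differed together in this comparison and cannot be told apart. Within sg-NT cells, 0 of the 10 LSD1 peaks overlapped a GFI1 peak, against 5.96% of all LSD1 peaks, and 0 of the 10 overlapped a SPI1 peak of THP1 cells, against 0.779%. Of the THP1 GFI1 peaks at these loci, 0 of 7 had a GFI1 peak of K562 sg-NT cells over them, against 2.34% of all.

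Set beside PRTN3, no other of these genes had both a THP1 GFI1 peak and an LSD1 peak with summits inside its own gene body. GFI1 alone settled this, since no other gene had a THP1 GFI1 summit inside its body. The BPI summit lay 65 bp outside, and LSD1 summits also lay inside ELANE and AZU1. ELANE, AZU1 and CFD had both in their windows, but the GFI1 summit lay in PRTN3 for ELANE and AZU1 and in MED16 for CFD. MPO, LYZ, BPI and LTF had a GFI1 peak in THP1 cells and no LSD1 peak in K562 sg-NT cells. PRSS57 had an LSD1 peak in sg-NT cells and no GFI1 peak in THP1 cells. CTSG had no peak in any of the 5 lists. LSD1 had no THP1 list, so these pairings do not describe the same cells. The limits of the window decided some of these counts. The AZU1 window took in the PRTN3 GFI1 peak by its edge, 9827 bp from the gene body. The LYZ window also took in its GFI1 peak by the edge, 9530 bp from the gene body, with the summit at 10132 bp. With the summit required inside the window, THP1 GFI1 had a peak at 6 of the 10 loci, without AZU1 and LYZ. The share of all genes was not computed for this rule. Just outside the window limits lay the LSD1 peak before the CFD start, 10772 bp from the PRTN3 gene body. A second LSD1 peak near PRSS57 lay 12710 bp away, with a fold of 5.84.

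A further 32 genes of granule proteins, taken by name with earlier results of these data known, were measured in the same way. SPI1 had a peak at 4 of them (12.5%), THP1 GFI1 at 2 (6.25%), LSD1 at 3 (9.38%) and the K562 GFI1 lists at 0. All protein-coding genes had shares of 7.48% for SPI1, 13.9% for THP1 GFI1 and 24.3% for LSD1. For the K562 GFI1 lists their shares were 2.14% (sg-NT) and 0.704% (sg-LSD1). The 3 shares of the 32 genes rest on 2 to 4 genes each, so no contrast with the 10 loci is drawn. No test of these shares was made. The strongest SPI1 peak was at CTSS (cathepsin S, a cysteine protease of antigen presentation), 55 bp upstream of the canonical start, with a fold of 13.9 and 29 fragments. Weaker SPI1 peaks lay in MS4A3, with a fold of 7.55, and in CTSC, 776 bp upstream of its canonical start, with a fold of 7.19. CTSC (cathepsin C) removes the dipeptides that keep granule serine proteases inactive. GFI1 in THP1 cells had peaks in the MMP9 window (gelatinase B, fold 6.96) and in MS4A3 (fold 5.29, 7 fragments). For the MMP9 window, the nearest canonical start to the summit was that of SLC12A5, at 7583 bp. Among those with LSD1 peaks were the windows of LCN2 (an iron-siderophore binding protein, fold 9.53) and of TCN1 (a vitamin B12 binding protein, 3 peaks with folds of 5.52 to 9.34). The summit in the LCN2 window lay in intron 1 of BBLN, and the TCN1 peak with a fold of 9.34 was nearest the start of CBLIF.

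Short motif cores were counted in the 100 bp around each summit, on both strands, as a description of sequence and not of binding. The full GFI1 core AATCAC stood in 1 of the 7 GFI1 windows at these loci, the site in MED16 near CFD, against 17.8% of all THP1 GFI1 windows. The shorter AATC, which every AATCAC contains, stood in 5 of 7, against 75.6%, and BPI and LTF were those without it. At the LSD1 summits, AATCAC stood in 0 of 10 windows against 5.18% of all, and AATC in 2 of 10 against 48.2%. Both were in PRTN3 and ELANE, and in ELANE the letters recurred with the tandem repeat. The AATC share at LSD1 summits depended on the window. It was 7 of 10 against 70.8% in 200 bp, and 2 of 10 against 27.6% in 50 bp. The SPI1 core GAGGAA stood at the LYZ SPI1 summit, beginning 10 bp before it, as in 56.9% of all SPI1 windows. It also stood in the BPI GFI1 window, against 15.9% of all THP1 GFI1 windows. TGTGGT, the RUNX core, stood in the GFI1 windows of MPO (near) and BPI (2 of 7, against 12.0%). CAACNG, a MYB site, stood in those of LYZ and MPO (far), also 2 of 7, against 13.3%. A window without a match says only that these letters are not in it.

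Promoter sequences of RefSeq (GRCh38.p14, 250 bases before to 50 after the start) matched 6 of the 10 genes: AZU1, CFD, CTSG, LTF, PRSS57 and PRTN3. LTF had 3 promoters and was counted if any of them held a match, whereas the shares of all promoters count each promoter singly, so the LTF matches are not like for like. GAGGAA stood in 3 of the 6, CTSG, LTF and PRTN3, against 27.9% of all 35116 promoters. In PRTN3 it began at −88 from the RefSeq start. In CTSG it stood at −46 on the opposite strand and at −16 on the strand of the gene, both in capitals in the sequence above. Neither gene had a SPI1 peak. CAACNG stood in 5 of 6, all but CFD, against 32.9%, and AATCAC in 0 of 6 against 10.2%. GCAAT, a C/EBP half-site that can overlap AATC by its last bases, stood in AZU1 and PRSS57 (2 of 6, against 24.5%). TGTGGT stood in LTF and PRSS57 (2 of 6, against 13.1%).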

How the data were processed

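ChIP-seq peak lists of 2 THP1 libraries (SPI1, GFI1) and 3 K562 libraries (LSD1 and GFI1 in sg-NT, GFI1 in sg-LSD1) were analysed. Per the submitters' notes, trimming used Trim Galore 0.6.1, alignment to GRCh38 used Bowtie2 2.5.4 and duplicate removal used Picard 3.1.0. MACS2 2.2.9.1 then called peaks in each library at a p of 1e-05, and blacklisted regions were left out. Whether input served as the MACS2 control is not given in the sources used here. The deposited fold is a ratio of fragment pileup to local background at the summit. The −log10 p and −log10 q are values the authors deposited for each peak. The deposited integer score was not used.

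From the deposited fold and −log10 p, whole fragment numbers were solved as (fragments + 1) / (background + 1) with a Poisson p, which succeeded for 100% of peaks at a tolerance of 0.01 in −log10 p. The solver was tested on simulated data. No read totals were used. Genes and canonical starts came from GENCODE release 44, with windows of the gene body and 10 kb. Overlap needed 1 bp. Named among the other granule genes are at most the 3 strongest genes per list. The members, lists and motifs were chosen with earlier results of these data known. The sequence of PRTN3 intron 1 and the values of 1 other granule gene are not reported here. Scripts used Python 3.11.15, numpy 2.4.6, scipy 1.17.1 and matplotlib 3.10.9. The alternatives were narrower and wider windows, a stricter −log10 p, summit-based counting, other overlap rules, a shorter motif core and another pseudocount.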

Additional observations from a re-analysis of the deposited data

How the results depend on the processing

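Across 19 counts and 81 alternative values, 65 stayed within 1.5 times of the count reported and 16 did not. With the gene body and 5 kb, or with the summit required inside the window, SPI1 had a peak at 0 loci (0 peaks). With 5 kb, THP1 GFI1 had a peak at 5 loci, PRTN3, CFD, MPO, BPI and LTF. With 10 kb around the gene start it also had one at 5, but these were PRTN3, ELANE, MPO, LYZ and BPI. The share of all genes was not computed for 5 kb or for the summit rule. The LSD1 peaks at the loci numbered 6 when a −log10 p of 8 or more was required and 19 with 50 kb. Other granule genes with a THP1 GFI1 peak numbered 1 with a −log10 p of at least 8 and 1 around the gene start, and those with an LSD1 peak 1 around the gene start. LSD1 peaks that overlapped a THP1 GFI1 peak numbered 1 with summits at most 200 bp apart and 1 with a −log10 p of at least 8. With the shorter core AATC, 5 GFI1 and 2 LSD1 summits had a match in the 100 bp window. With a pseudocount of 0, whole fragment numbers were found for 0 of the 18 peaks. The loci with an LSD1 peak and those with a K562 GFI1 peak moved by less than 1.5 times under the alternatives run. No paired analysis was possible because each ChIP condition had 1 library and the results come from no test. For the same reason no replicate could be left out. Depth limited the lists to places with at least 5 or 6 fragments, and intervals cover counting error only.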
